A study of Homo sapiens with 16 samples.

Results

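The response of PC3 cells to a nontargeting siRNA was followed by RNA-seq. PC3 is an established human prostate cancer cell line (ATCC CRL-1435), labelled wild type. The 4 libraries described were chosen by their labels, among 16 in the series: PC3 cells transfected with siNT1 for 24 or 48 h and PC3 cells labelled mock at 24 or 48 h. The labels give siNT1 at 1 nM, whereas the study's methods give a higher concentration for PC3, and the labels do not say whether mock cells received the lipid. An effect of the siRNA and an effect of the lipid therefore cannot be told apart. The 4 other PC3 libraries, transfected with the siRNAs named siCAG and siGGGGGC at 1 nM for the same times, entered the fit to estimate the spread. The siGGGGGC libraries carry that name only in their treatment label, while their titles and count columns read siMxy_3AB. Likewise, siNT1 is named only in the treatment label, and the titles and count columns of those libraries read siNT_3AB. The seed followed below therefore rests on the treatment label. The 8 libraries of HeyA8, an established ovarian cancer line given the same treatments, doses and times, were fitted apart. Each treatment and time had 1 library, so that the 24 and 48 h libraries served as the 2 replicates of a group, with time as a block. By the study's methods the times were taken from separate wells, but not from experiments said to be independent, and the p-values measure the spread between these libraries, which may be technical. The mock libraries held 29610199 (24 h) and 29971612 (48 h) reads assigned to genes, and the siNT1 libraries 28349471 and 28216897. Between 17767 and 17924 genes had a read in each of the 4 libraries.

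In RNA interference, the guide strand of an siRNA is loaded into an Argonaute protein and pairs with mRNAs. A short stretch at its 5′ end, the seed, is enough for partial silencing of mRNAs that carry the complementary bases in their 3′ untranslated region (3′ UTR), so a nontargeting siRNA still has a seed. The seed of siNT1 is UAGUCG, matched by CGACTA in an mRNA, and its passenger strand is chemically modified to keep it out of Argonaute. Delivery of RNA with cationic lipid can also engage innate sensors of RNA, the NF-kB pathway and stress kinases, which is why mock and nontargeting controls are set side by side. PC3 cells are a mixed epithelial and mesenchymal line: E-cadherin and keratins are made together with vimentin.

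The labelled line was checked against its markers. The keratin gene KRT18 had 8099 and 9371 normalized counts in mock (24 and 48 h; counts scaled to the mean effective library size of the PC3 libraries) and 6921 and 7245 after siNT1, and VIM, the vimentin gene, had 31249.8 and 30665 in mock and 29616 and 28610.3 after siNT1. Both were abundant in all 4 libraries. The androgen-dependent prostate genes KLK2 and KLK3 had no read in any of these libraries, but the 6 prostate luminal markers together had 854 and 1132 reads in mock and 883 and 1291 after siNT1. The fibroblast gene DCN, the T cell gene CD3E and the endothelial gene CDH5 had none, while the other endothelial marker, PECAM1, had 136 and 159 in mock and 84 and 122 after siNT1. The 3 leukocyte markers summed to 776 and 748 reads in mock and 904 and 774 after siNT1, of which CD68 gave 764, 743, 892 and 772, and the 5 fibroblast markers to 700 and 808 in mock and 1161 and 1766 after siNT1, of which COL1A1 gave 689, 789, 1132 and 1733. Of the 20 cell type markers tested, CDH1 was the only one called in the comparison with mock, where 0.205% of all genes were called higher. The median log2 difference of the 20 was -0.05. At an unadjusted p under 0.05, 5 were higher, EPCAM, CDH1, COL1A1 and LUM among them, and none lower, where 5.15% of all genes were higher and 3.86% lower, and COL1A1 also passed with the siNT1 and mock libraries alone. The part of other cell types in the results was not tested.

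Relative to mock, siNT1 left most of the transcriptome within the noise of this design and raised a small group of genes by large factors. Of 15136 genes tested, 35 (0.231%) differed at an adjusted p under 0.05 (edgeR quasi-likelihood test, Benjamini-Hochberg adjustment), 31 higher (0.205%) and 4 lower (0.0264%) after siNT1. The 31 genes that rose did so by 1.28 to 5.24 on the log2 scale, with a median of 2.70, whereas the median over all genes tested was -0.0064. They included genes of epithelial cells (ESRP1, OVOL1, ST14, CDH1), inflammatory genes (IL6, CXCL8, CXCL5, PTGS2) and stress genes (ATF3, SESN2, HMOX1). The genes that fell were CENPE, TSPAN8, FAM131B and MSMP. All 35 moved in the same direction at 24 and at 48 h. In 24 of the 31 genes that rose, both mock libraries were under 100 normalized counts. Genes nearly absent in mock, such as OVOL1, MAL and NYNRIN, passed the count filter only through siRNA libraries. For such genes only a rise could be called, and their large fold changes enter the range and median given here. At an unadjusted p under 0.05 there were 1364 genes (9.01%), of which 780 were higher and 584 lower. In bulk RNA, more cells making a transcript and more transcript in each cell cannot be told apart.

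The number of calls depended on which libraries estimated the spread. With only the siNT1 and mock libraries 253 genes passed, among them all 35. That fit leaves almost no residual degrees of freedom and holds the same siNT1 and mock libraries, so its calls are no separate support. Without the siCAG libraries 11 passed, all higher, and 24 of the 35 calls were lost, those of the 4 lower genes among them. Without any single siNT1 or mock library none passed by edgeR (528 to 1128 at an unadjusted p under 0.05). The median gene had a standard error of 0.22, so that a log2 difference under 0.52 had an interval that still held 0. Across all genes the log2 difference at 24 h and that at 48 h had a Pearson correlation of 0.42 (15136 genes, which are not independent replicates). Both times share no library, but 240 genes were over 2-fold higher and 95 over 2-fold lower at both.

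**Figure D1:**
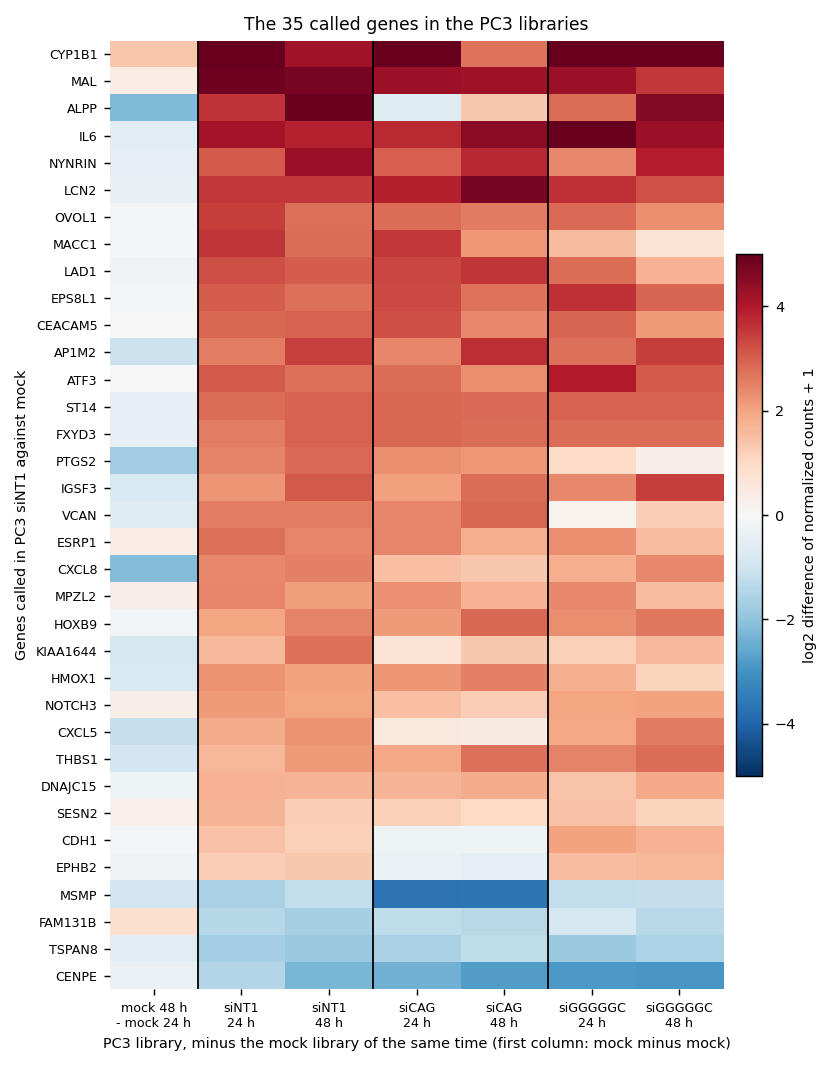
The 35 genes called in PC3 siNT1 against mock (rows, by log2 fold change) in the PC3 libraries. Colour is the log2 difference of normalized counts + 1 from the mock library of the same time, with the scale ending at 5; the first column is mock at 48 h minus mock at 24 h. Both siNT1 columns are red for the upper 31 genes and blue for the lower 4, and CDH1, EPHB2 and ALPP are pale blue at 24 h of siCAG.

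Genes known from epithelial cells were among those that rose. ESRP1, an RNA-binding protein that directs epithelial splicing, had 67.0 and 88.1 normalized counts in mock (24 and 48 h) and 454 and 488 after siNT1. Both siNT1 libraries lay above both mock libraries at either time (log2 fold change 2.60 ± 0.25 SE, n = 2 a group, adjusted p = 0.023). The epithelial transcription factor gene OVOL1 went from 5.0 and 4.79 to 64.6 and 38.0 (3.33 ± 0.43, adjusted p = 0.0386). It was nearly silent in mock and low but plainly counted after siNT1.

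CDH1, the E-cadherin gene, was already expressed in mock, at 288 and 276, and had 806 and 629 after siNT1. This was a rise of 1.34 ± 0.18 on the log2 scale (adjusted p = 0.0417) with no overlap between the groups. ST14 encodes matriptase, a membrane serine protease of epithelia, and it had the smallest adjusted p of all genes, 0.0083. Its counts were 76.0 and 57.5 in mock and 526 and 445 after siNT1, a log2 fold change of 2.87 ± 0.20.

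LAD1, a basement membrane anchoring filament protein, had 94.0 and 83.3 in mock and 888 and 690.4 after siNT1 (3.14 ± 0.32, adjusted p = 0.0263). AP1M2, a subunit of the clathrin adaptor of polarised epithelia, had 19.0 and 8.62 in mock and 116 and 102 after siNT1. For MAL, which encodes a membrane raft protein of apical transport, mock had 2.0 and 2.87 and siNT1 85.2 and 103. In all 3 genes both siNT1 values were far above both mock values, although AP1M2 differed within mock between 24 and 48 h.

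Other genes that rose and are placed here by their known expression, not by a list, were FXYD3, a regulator of the sodium pump (log2 fold change 2.86 ± 0.33), CEACAM5, a cell surface adhesion protein of the gut (2.99 ± 0.36), MPZL2, an epithelial adhesion protein (2.29 ± 0.29), and EPS8L1, a relative of the actin regulator EPS8 (3.07 ± 0.40). Counts of these 4 lay between 5.75 and 35.5 in mock and between 44.2 and 158 after siNT1. CEACAM5 has close paralogs with which reads can be shared, and EPS8L1 is placed by the file on an alternate locus of chromosome 19, so that their counts are uncertain.

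A list of 38 epithelial genes, written after the called genes had been seen and therefore no support for them, put these in context. Of 37 tested, 6 were called, all higher (ESRP1, OVOL1, CDH1, AP1M2, ST14, LAD1), where 0.205% of all genes were called higher. At an unadjusted p under 0.05, 18 were higher (5.15% of all genes) and 1 lower (3.86%), and the median was 0.94. GRHL2, a transcription factor of epithelia, had 22.0 and 42.1 in mock and 153 and 165 after siNT1 but was not called (2.31 ± 0.37, adjusted p = 0.083), and the tight junction gene CLDN7 had 55.0 and 49.8 in mock and 211 and 215 after siNT1 (adjusted p = 0.0784). Both genes sat just outside the threshold and were named after their values had been seen. Their groups did not overlap, but with so few libraries this is no support, and its share over all genes was not counted.

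The abundant epithelial genes of the same list did not pass. KRT8 had 7255 and 6714 in mock and 5938 and 5451 after siNT1 (-0.30 ± 0.24), and KRT19 had 9291 and 14302 in mock and 10363 and 10184 after siNT1 (-0.21 ± 0.31). For KRT19 the groups overlapped, and siNT1 was above mock at 24 h and below it at 48 h. A list of 20 mesenchymal genes was likewise written after the called genes had been seen and is no support for them. Of 19 tested, 1 was called, VCAN (0.205% of all genes were called higher), with a median of 0.28 over the list. At an unadjusted p under 0.05, 5 were higher (5.15% of all genes) and 1, SPARC, lower (3.86%). With the siNT1 and mock libraries alone 4 of 18 passed as higher (SNAI2, COL1A1, COL5A1, VCAN) and SPARC as lower, beside 14 of 36 epithelial genes as higher, where 1.07% of all genes passed as higher and 0.664% as lower. Whether the lists differ was not tested. VIM differed by -0.09 ± 0.13, and ZEB1, a repressor of epithelial genes, had 1625 and 1425 in mock and 1464 and 509.6 after siNT1. Only the 48 h siNT1 library was low for ZEB1 (-0.77 ± 0.49, adjusted p = 0.696).

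Genes known from inflammation were also among those that rose. Of those named here, IL6 and CXCL8 belong to the list of NF-kB regulators and cytokines given below. CXCL5, PTGS2 and LCN2 are placed here by their known function, not by a list, after they had been called. IL6, a cytokine of the acute phase response, had 9.00 and 5.75 normalized counts in mock and 176 and 95.5 after siNT1 (log2 fold change 4.17 ± 0.56, adjusted p = 0.0417). CXCL8, the neutrophil chemokine interleukin 8, had 732 and 163 in mock and 3899.9 and 947 after siNT1 (2.47 ± 0.21, adjusted p = 0.0159). It fell with time under both treatments, and siNT1 was higher at each time.

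CXCL5, a chemokine of the same receptor family, had 137 and 60.4 in mock and 503 and 289 after siNT1. PTGS2, which encodes cyclooxygenase 2, had 50 and 14.4 in mock and 280.1 and 108 after siNT1. Both were called (2.05 ± 0.25 and 2.70 ± 0.32, adjusted p = 0.0342 each), with every siNT1 value above every mock value. LCN2, an iron-sequestering protein of innate defence, rose from 36.0 and 27.8 to 423 and 333 (3.56 ± 0.36, adjusted p = 0.0247).

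Of 20 listed NF-kB regulators and cytokines, 17 were tested: 2 were called higher, IL6 and CXCL8 (0.205% of all genes), and none lower (0.0264%). At an unadjusted p under 0.05, 10 were higher (5.15% of all genes) and none lower (3.86%). The median of the list was 0.97, beside -0.0064 for all genes. This list, like the other lists, was chosen with earlier results of these data known, so its shares are a description and no test. The chemokine gene CXCL2 had 64.0 and 16.3 in mock and 275 and 78.1 after siNT1 without passing the threshold (2.16 ± 0.31, adjusted p = 0.0566). With the siNT1 and mock libraries alone, 8 of 16 tested members passed, namely RELB, TNFAIP3, IL6, CXCL8, CXCL1, CXCL2, CXCL3 and TNFAIP2, where 1.07% of all genes passed as higher and 0.664% as lower. TNF, IL1A and CCL2 were too low to be tested.

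Of 37 listed genes of interferon signalling and of RNA sensing, 31 were tested. None was called by edgeR, where 0.231% of all genes were, or passed with the siNT1 and mock libraries alone. At an unadjusted p under 0.05, 2 were higher and 2 lower, where 9.01% of all genes passed, and the median was 0.03. The difference between this list and the NF-kB list was not tested. Among the abundant members, the RNA-activated synthetase gene OAS3 and the adaptor gene MAVS differed by 0.04 ± 0.18 and 0.12 ± 0.16 (adjusted p = 0.973 and 0.883). The interferon genes IFNB1 and IFNL1 and the interferon-induced chemokine gene CXCL10 were too low to be tested. IFIT1, an interferon-induced RNA-binding protein, had 480.1 and 512 in mock and 334 and 258 after siNT1 (-0.75 ± 0.20, adjusted p = 0.278), and IFIT3 differed by -0.78 ± 0.21. In the other direction, RSAD2, the antiviral protein viperin, had 33.0 and 17.2 in mock and 97.5 and 51.4 after siNT1 (1.56 ± 0.31, adjusted p = 0.149), and IRF1, an interferon regulatory factor, differed by 0.63 ± 0.24.

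Stress genes rose as well. ATF3, a transcription factor induced by the integrated stress response, in which phosphorylated eIF2 slows translation and ATF4 drives its targets, had 70.0 and 71.8 in mock and 595 and 486 after siNT1 (2.91 ± 0.25, adjusted p = 0.0159). SESN2, a sensor of leucine that restrains mTORC1 and a target of ATF4, had 178 and 212 in mock and 587 and 497 after siNT1 (1.47 ± 0.20, adjusted p = 0.0417). Both genes differed little between 24 and 48 h. HMOX1, heme oxygenase 1, had 501 and 298 in mock and 2368 and 1202 after siNT1 (2.13 ± 0.24, adjusted p = 0.0319), and both siNT1 values were above both mock values.

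Over 19 listed genes of the integrated stress and unfolded protein responses, all tested, 2 were called higher (ATF3 and SESN2; 0.205% of all genes), 11 were higher at an unadjusted p under 0.05 (5.15% of all genes), none lower, and the median was 0.73. DDIT3, the stress transcription factor CHOP, had 352 and 468 in mock and 783 and 887 after siNT1 (1.04 ± 0.17, adjusted p = 0.0832). HSPA5, the main chaperone of the endoplasmic reticulum, had 23056 and 18186 in mock and 38719.5 and 30122 after siNT1 (0.74 ± 0.15, adjusted p = 0.156). With the siNT1 and mock libraries alone 8 of these 19 passed, DDIT3 and HSPA5 among them (1.07% of all genes passed as higher). Of 17 tested genes for heat shock, oxidative and metal stress only HMOX1 was called (0.205% of all genes were called higher), and the median of that list was 0.04. The metallothionein genes MT1X (0.97 ± 0.24), MT2A (0.81 ± 0.18) and MT1F (0.81 ± 0.30), which encode metal-binding proteins, were with HMOX1 the 4 higher at an unadjusted p under 0.05 (5.15% of all genes), none was lower, and MT1X also passed with the siNT1 and mock libraries alone.

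**Figure D2:**
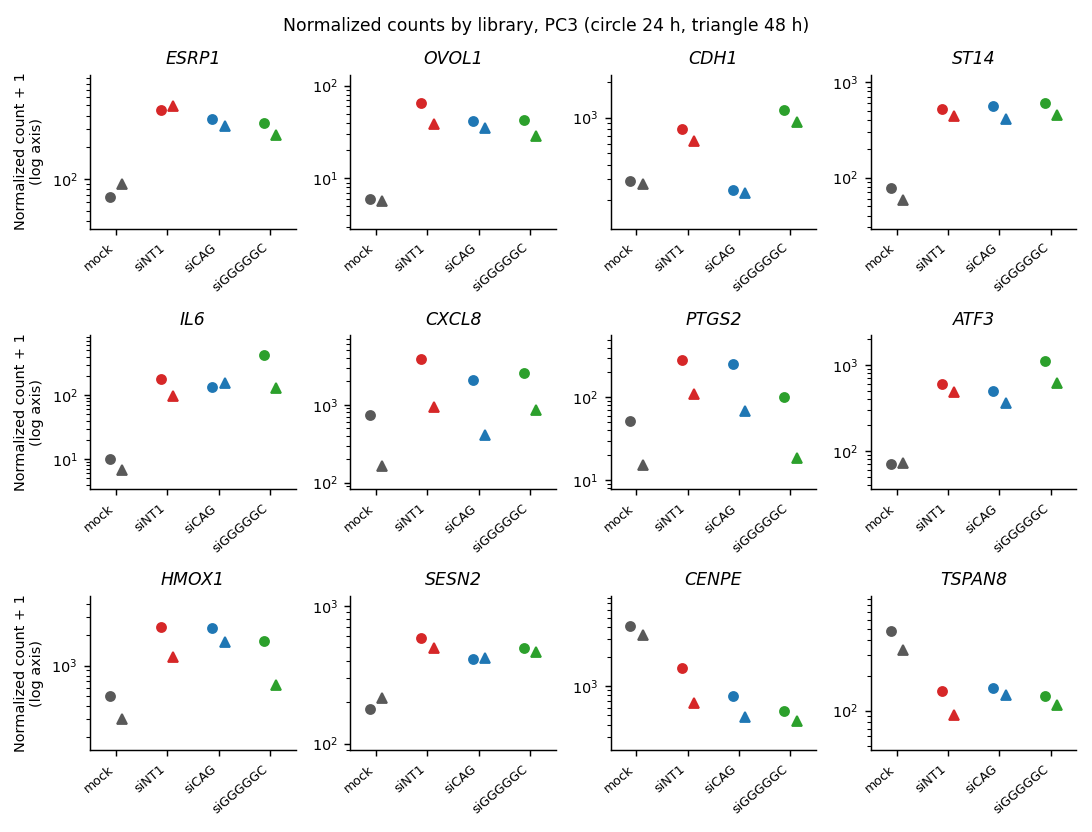
Normalized counts + 1 (log axis) of 12 called genes in each PC3 library, by treatment on the x axis (circles 24 h, triangles 48 h). The siNT1 points lie above the mock points of the same time in the first 10 panels and below them for CENPE and TSPAN8, and for CXCL8 the 48 h siNT1 value (947) is close to the 24 h mock value (732).

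Other genes that rose did not belong to these groups. CYP1B1, a cytochrome P450 and a known target of the aryl hydrocarbon receptor, had the largest fitted log2 fold change of the calls, but not at 48 h alone or without the 24 h mock library, where it had 3.0. It went from 3.0 and 9.58 in mock to 293 and 195 after siNT1 (5.24 ± 0.69, adjusted p = 0.0386). ALPP, placental alkaline phosphatase, had 8.0 and 0.96 in mock and 108 and 60.6 after siNT1, and its near-identical relatives make its count uncertain. NYNRIN had 3.0 and 1.92 in mock and 32.8 and 57.5 after siNT1. All 3 were close to absent in mock.

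THBS1, thrombospondin 1, was the most abundant gene that rose, from 3779.6 and 1923 in mock to 11979.7 and 8474 after siNT1 (1.89 ± 0.20, adjusted p = 0.0304). VCAN, the matrix proteoglycan versican, had 21.0 and 13.4 in mock and 128 and 84.2 after siNT1. Both encode secreted matrix proteins. The receptor genes NOTCH3 and EPHB2 rose by 2.07 ± 0.25 and 1.28 ± 0.18, and EPHB2, with 241 and 211 in mock and 566 and 531 after siNT1, had the largest adjusted p of the calls, 0.0493. MACC1, a regulator of the MET receptor gene, rose from 19.0 and 18.2 to 237 and 134. IGSF3 (2.63 ± 0.31), the homeobox gene HOXB9 (2.28 ± 0.32), KIAA1644 (2.19 ± 0.30) and the mitochondrial co-chaperone gene DNAJC15 (1.74 ± 0.24) completed the list. HOXB9 lies in a cluster with antisense transcripts, and the strand setting of the counting is not given in the sources used here.

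Among the 4 genes that fell, CENPE, the kinesin that moves chromosomes to the metaphase plate, had 4141 and 3285 normalized counts in mock and 1513 and 669 after siNT1 (log2 fold change -1.85 ± 0.23, adjusted p = 0.0342). TSPAN8, a tetraspanin of the cell surface, had 478 and 331 in mock and 146 and 90.4 after siNT1 (-1.78 ± 0.22). In both genes the 48 h siNT1 library was the lowest of the 4. MSMP, a secreted microprotein of prostate cells, was among the abundant transcripts of mock cells, at 32744 and 16787, and had 10606 and 7126 after siNT1 (-1.43 ± 0.16, adjusted p = 0.0304). FAM131B had 1379 and 2399.8 in mock and 509.9 and 758 after siNT1 (-1.55 ± 0.19, adjusted p = 0.0342).

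With all PC3 libraries in the fit, CENPE was the only called gene of 20 listed for mitosis (0.0264% of all genes were called lower), of which 5 were lower (3.86% of all genes) and none higher (5.15%) at an unadjusted p under 0.05, with a median of -0.35. TOP2A, the mitotic topoisomerase, had 17806 and 14993 in mock and 11577 and 6461 after siNT1 (-0.93 ± 0.44, adjusted p = 0.581), and it passed with the siNT1 and mock libraries alone (-0.92, adjusted p = 0.0404). Of 22 listed E2F and replication genes, none was higher (5.15% of all genes) and 2 were lower (3.86%) at an unadjusted p under 0.05. None of the 22 was called by edgeR, where 0.231% of all genes were, and their median was 0.14. RRM2, the small subunit of ribonucleotide reductase, was the most abundant of these, with 14968 and 11736 in mock and 7877 and 5902 after siNT1 (-0.96 ± 0.18, adjusted p = 0.125), and it passed with DESeq2 and with the siNT1 and mock libraries alone. MCM7 and RRM1 differed by 0.17 and -0.08.

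The lists for RNA interference machinery (20 genes tested, median 0.15), sterol and fatty acid synthesis (25, -0.24), lysosome and autophagy (21, 0.08), immediate early and MAPK feedback genes (20, 0.30), YAP/TEAD targets (10, 0.20) and hypoxia and glycolysis (21, -0.36) held no called gene by edgeR (0.231% of all genes were called). At an unadjusted p under 0.05, 2, 1, 3, 6, 2 and 1 of their members were higher (5.15% of all genes) and 1, 2, 0, 1, 0 and 5 lower (3.86%), and with the siNT1 and mock libraries alone 1, 0, 1, 1, 1 and 1 passed as higher (DICER1, SQSTM1, DUSP1, CYR61 and VEGFA; 1.07% of all genes) and 1, AGO4, as lower (0.664%). Their most abundant members were CNOT1 (-0.02 ± 0.15), FASN (-0.47 ± 0.23), SQSTM1 (0.79 ± 0.22), FOSL1 (0.18 ± 0.20), AXL (0.70 ± 0.37) and ENO1 (-0.26 ± 0.20), none of them called with all PC3 libraries in the fit. The members next in abundance, DDX6, TSN, SCD, ACLY, CTSD, PHLDA1, DUSP4, WWTR1 and TEAD1, lay between -0.59 (SCD) and 0.21 (CTSD). In the hypoxia and glycolysis list, ALDOA, PGK1, LDHA, PFKFB4 and P4HA1 were lower at an unadjusted p under 0.05, LDHA by -0.49 ± 0.18, and VEGFA, the angiogenic growth factor gene, was higher (0.93 ± 0.15, adjusted p = 0.087). Of 10 reference genes none was called or passed at an unadjusted p under 0.05 by edgeR, nor did any pass with the siNT1 and mock libraries alone, and their median was 0.02. They include the 5 control mRNAs of the study's pull-down experiment, of which VAMP3 (0.15), PPIL1 (-0.03), RFC3 (0.02) and UMPS (0.02) were near 0 and TPP2 was at -0.27 ± 0.16. GAPDH differed by -0.30 ± 0.17 (adjusted p = 0.651), ACTB by 0.25 and B2M by 0.27.

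**Figure D3:**
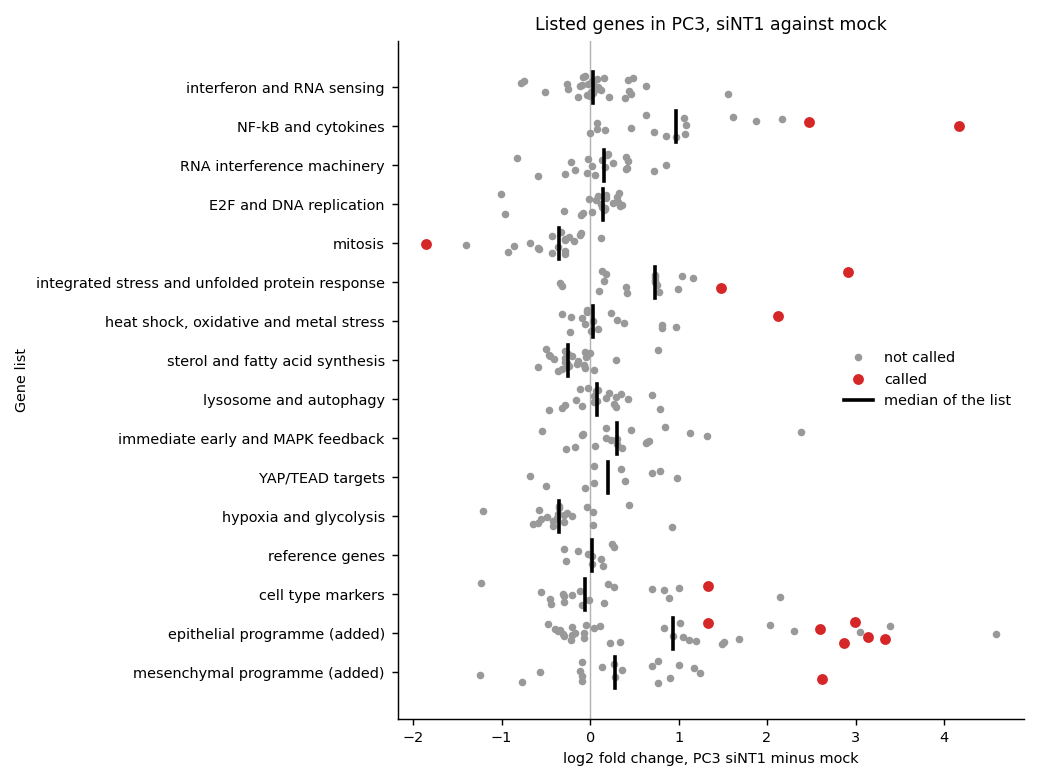
The log2 fold change of each tested gene (points; red where called) in the gene lists described and the 2 lists written after the calls, in PC3 siNT1 minus mock. Black bars are list medians. Those of NF-kB and cytokines (0.97) and of the stress responses (0.73) lie to the right, and that of interferon and RNA sensing (0.03) at 0.

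The other siRNA libraries of PC3 were set beside siNT1. All these comparisons share the same 2 mock libraries, so a mock value that is high or low moves every one of them in the same direction. Of the 31 genes that rose after siNT1, 26 were over 2-fold higher in siCAG than in mock and 29 in siGGGGGC than in mock, where 4.29% and 6.92% of all genes tested were. Their medians were 2.56 and 2.53, beside 2.70 for siNT1. ST14 was nearly level among the siRNAs, at 562 and 414 normalized counts after siCAG and 601 and 452 after siGGGGGC. OVOL1 (40.6 and 33.7, then 42.1 and 27.9) and AP1M2 (106 and 122, then 133 and 105) were likewise far above mock with either siRNA.

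A few genes departed from this. CDH1 had 242 and 229.8 normalized counts after siCAG, below mock, and 1156 and 923 after siGGGGGC. EPHB2 had 189.6 and 151 after siCAG and 701 and 665 after siGGGGGC. ALPP stayed at 4.84 and 3.96 after siCAG. CXCL5 was less than 2-fold above mock after siCAG, at 198 and 82.2 (log2 difference 0.49), as was KIAA1644 (0.98). These were the 5 genes of the 31 not over 2-fold higher with siCAG. VCAN and PTGS2 were closest to mock in siGGGGGC instead, at 24.0 and 33.1 and at 99.1 and 17.6. MSMP was lowest with siCAG, at 2539.9 and 1333. CENPE was lower with both other siRNAs than with siNT1, at 783 and 479 for siCAG and 559.8 and 439 for siGGGGGC.

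The same siRNA in HeyA8, an ovarian cancer line, has its own mock libraries. There, 16 of the 35 genes were expressed enough to be tested, 13 of them from the 31 that rose in PC3. Those 13 had a median log2 difference of 0.09 in HeyA8, with none over 1 and a range of -0.94 to 0.60. In HeyA8, siNT1 against mock called 0 of 13872 genes by edgeR, and 177 (1.28%) passed at an unadjusted p under 0.05. CXCL8 had 984 and 684 in HeyA8 mock and 1068 and 881 after siNT1, HMOX1 1708 and 941 and then 1906 and 1136. ATF3 had 71.2 and 79.4 in HeyA8 mock, about its level in PC3 mock, and 86.9 and 69.5 after siNT1, with overlap.

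IL6 had 18 and 15 reads in HeyA8 mock and 16 and 15 after siNT1. Several of the epithelial genes were at or near 0 in HeyA8: CDH1 and ST14 had at most 3 reads in each of the 4 libraries, and OVOL1, CEACAM5, MAL and FXYD3 none, as had LCN2 and CXCL5. AP1M2, in contrast, had 710.0 and 1219 normalized counts in HeyA8 mock and 813 and 1233 after siNT1, with overlap. SESN2 alone of the 13 was higher by over 0.5 there, with 908 and 867 in mock and 1527 and 1192 after siNT1.

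The difference between the lines was tested itself, as a line by treatment term over all 16 libraries. No gene of 15887 passed (edgeR, 0% called; 318, or 2%, at an unadjusted p under 0.05; 14 by DESeq2, and 10 by edgeR with only the siNT1 and mock libraries). For IL6 the line difference was 4.24 on the log2 scale (adjusted p = 0.673), for HMOX1 1.90 (adjusted p = 0.673), for ATF3 2.87 and for CXCL8 2.25 (adjusted p = 1 each). The smallest adjusted p among the 35 genes was that of NYNRIN, 0.166. This test therefore shows a response particular to PC3 for none of them.

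**Figure D4:**
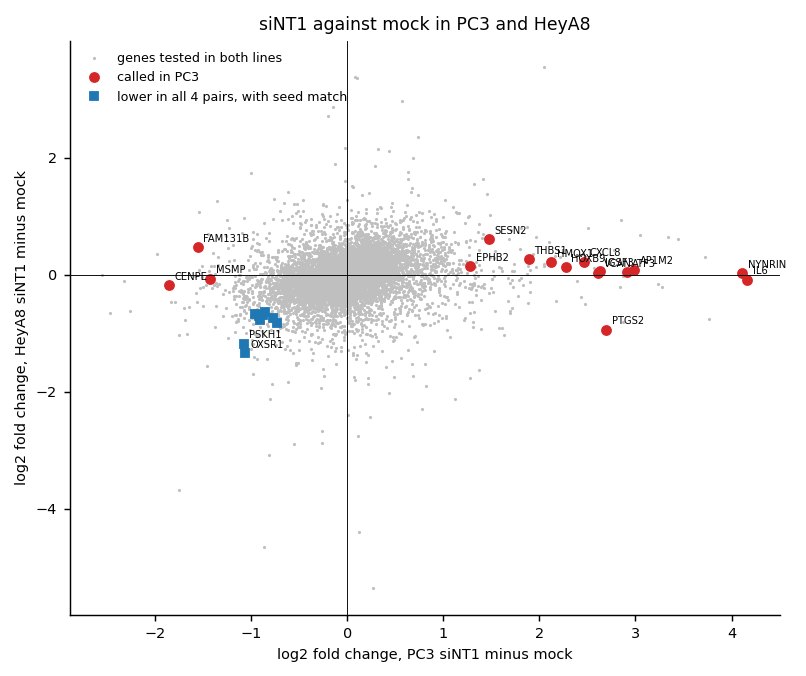
Log2 fold change of siNT1 minus mock in PC3 (x axis) and HeyA8 (y axis) for every gene tested in both lines (grey), with the 16 genes called in PC3 in red and 9 genes with the seed match that were lower in both lines at both times in blue. The red points spread along the x axis and stay between -0.94 and 0.60 on the y axis, whereas the blue squares are below 0 on both axes.

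The seed of siNT1 was then followed through the mRNAs. CGACTA occurs in the 3′ UTR of 421 of the 13373 tested PC3 genes with an annotated 3′ UTR (3.15%). Their median log2 difference between siNT1 and mock was -0.093, beside -0.003 for the 12952 genes without it, and 62.2% of them were below 0, beside 50.5%. The 32 genes with an 8mer site (the match preceded by T and followed by A) had a median of -0.15 and the 101 with the match and a following A -0.14. The 68 with a preceding T and the 220 with the bare 6mer had -0.06 and -0.07. This order did not hold at 48 h alone, with -0.092 for the 8mer and -0.111 for the 6mer, and in HeyA8 the medians were -0.098 and -0.093.

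The same genes had a median of -0.047 in siCAG minus mock and 0.003 in siGGGGGC minus mock, beside -0.003 and 0.032 for genes without the match, again with the shared mock libraries. In HeyA8, with mock libraries of its own, 394 genes with the match had a median of -0.096 after siNT1, beside 0.001 without, and 67.3% of them were below 0. Genes with CGACTA have longer 3′ UTRs (median 3194 bases, beside 1451), and after regression on 3′ UTR length and GC content the PC3 medians were -0.083 and -0.004. The bases TAAACC, which match the seed of the passenger strand, gave a median of -0.027 in 4176 genes with them and 0.004 without. None of the 35 called genes has CGACTA in its 3′ UTR, where 3.15% of tested genes with a 3′ UTR have it. At that share few would be counted among 35 genes, so nothing is read from this.

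**Figure D5:**
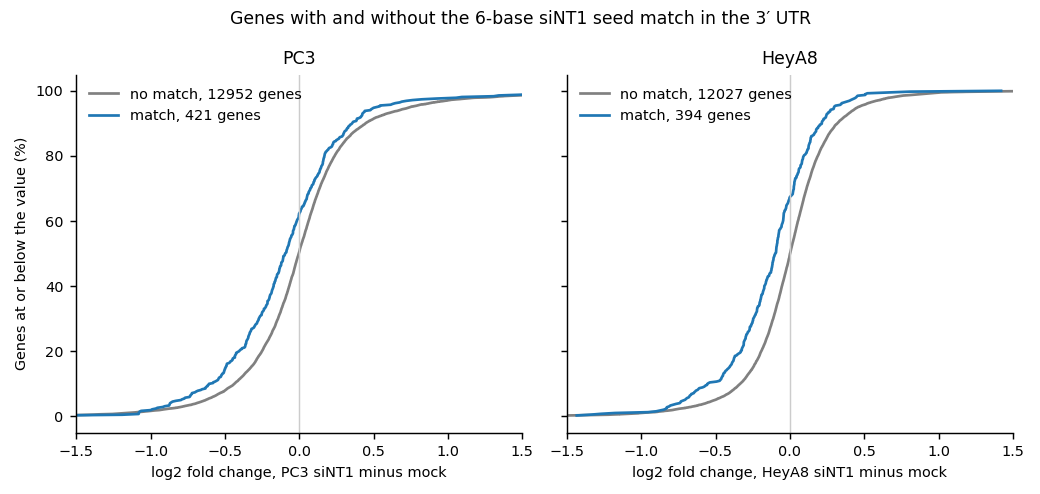
Cumulative share of genes (y axis, percent) by log2 fold change of siNT1 minus mock (x axis, shown from -1.5 to 1.5) for genes with (blue) and without (grey) CGACTA in the 3′ UTR, in PC3 and HeyA8. In each line the blue curve lies to the left of the grey one around 0, with medians of -0.09 in PC3 and -0.10 in HeyA8.

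Genes that moved in every siNT1 and mock pair were picked out after their values had been seen, as a description with no test. Of 9835 genes with at least 100 normalized counts in the mock libraries of both lines, 32 were lower by 0.5 or more on the log2 scale in all 4 pairs (24 and 48 h in PC3 and in HeyA8), and 22 were higher. CGACTA was found in 9 of the 32 lower genes (28.1%) and in none of the 22 higher ones, beside 3.31% of the 9553 of these genes with a 3′ UTR. The lower genes also had longer 3′ UTRs, with a median of 2611 bases beside 1630, and the part of length in the share was not tested. TAAACC was found in 15 of the 32 (46.9%), beside 33.2%.

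The sites of the 9 genes are shown because they carry the bases that the siNT1 seed can pair with. Each line is 28 bases of the 3′ UTR, 5′ to 3′ on the mRNA strand, with the CGACTA match in capitals, from GENCODE v44 transcripts on GRCh38. LMLN has a further match, of which the longer one is shown.
OXSR1: gtctttctaaaCGACTAaaggatttgtt
PSKH1: ctgtgccaagtCGACTAtgccttagaca
SERBP1: aggattccaaaCGACTAagaaattaaaa
POLE3: gggattctgaaCGACTAaattagtcagt
ZMYM3: agctgttgtcaCGACTAaccttctgtct
CLOCK: aggaatagaatCGACTAtttttatagta
LMLN: agtgataggttCGACTAtattttgactg
NBPF3: acacgttcacaCGACTAtgtagcacatg
SMIM13: ggactctcaagCGACTAatggaatagtg
The match is followed by A in OXSR1, SERBP1, POLE3, ZMYM3 and SMIM13 and preceded by T in PSKH1, CLOCK and LMLN, and no site of these genes has both. The site of OXSR1 lies at chr3:38255239-38255266 (plus strand), that of PSKH1 at chr16:67929320-67929347 (plus) and that of SERBP1 at chr1:67413114-67413141 (minus). Those of POLE3 and ZMYM3 lie at chr9:113408547-113408574 and chrX:71239662-71239689, both on the minus strand. CLOCK has its site at chr4:55431379-55431406 (minus), LMLN at chr3:198041820-198041847 (plus), NBPF3 at chr1:21483583-21483610 (plus) and SMIM13 at chr6:11138220-11138247 (plus).

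OXSR1, a kinase that relays WNK signalling to ion cotransporters, had the lowest mean over the 4 pairs of the 9 genes, -1.21. It had 4502 and 4235 normalized counts in PC3 mock and 2258 and 1923 after siNT1 (-1.06 ± 0.16, adjusted p = 0.0702), and in HeyA8 6107 and 5839 in mock and 2634 and 2085 after siNT1 (-1.34). After siCAG it had 4157 and 4019.6 in PC3 and after siGGGGGC 5190.1 and 6272. Only the siNT1 libraries were low in PC3.

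PSKH1, a serine kinase, had 1091 and 1160.2 in PC3 mock and 538 and 530.2 after siNT1 (-1.08 ± 0.21, adjusted p = 0.143), and it differed by -1.18 in HeyA8. The mRNA-binding protein gene SERBP1 had 14789 and 12484 in PC3 mock and 8364 and 6286 after siNT1 (-0.90 ± 0.14, adjusted p = 0.0666), and differed by -0.77 in HeyA8. POLE3, an accessory subunit of DNA polymerase epsilon, had 3527 and 3295 in mock and 2156 and 1842 after siNT1 (-0.77 ± 0.15, adjusted p = 0.133), and differed by -0.73 in HeyA8. In PC3 the groups did not overlap for any of these 3 genes, which their choice by lower values at both times made all but certain. None passed over all genes with all PC3 libraries in the fit. All 3 did with the siNT1 and mock libraries alone (edgeR, adjusted p = 0.0184 for PSKH1 and SERBP1 and 0.0294 for POLE3). Those libraries were used to choose the genes, so these passes are no support for them.

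ZMYM3, a zinc finger protein, differed by -0.85 ± 0.15 in PC3 and by -0.63 in HeyA8. CLOCK, a transcription factor of the circadian clock, differed by -0.92 ± 0.32, LMLN, a metallopeptidase gene, by -0.95 ± 0.28, SMIM13 by -0.87 ± 0.28 and NBPF3 by -0.73 ± 0.19 in PC3. CLOCK was also lower than mock after siCAG (-0.76) and siGGGGGC (-1.65), and SMIM13 after siCAG (-1.42), whereas LMLN was not (0.38 and 0.31). NBPF3 was as low after siGGGGGC (-0.72) as after siNT1, and PSKH1 differed by -0.57 after siCAG and -0.42 after siGGGGGC.

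Of the 23 lower genes without CGACTA, MED20, a Mediator subunit, had the smallest adjusted p in PC3, 0.0583, with 925 and 919 in mock and 407 and 435 after siNT1. RRM2 was in this set too, at -1.02 ± 1.34 in HeyA8. The 22 genes higher in all 4 pairs included CDKN1A, the cyclin-dependent kinase inhibitor p21, at 598 and 318 in PC3 mock and 1503 and 916 after siNT1 (1.43 ± 0.27, adjusted p = 0.128) and 0.63 higher in HeyA8. DICER1, the enzyme that cuts small RNA precursors, was 0.86 ± 0.31 higher in PC3 (adjusted p = 0.45) and 0.61 higher in HeyA8. CCND1, cyclin D1, differed by 0.74 and 0.54, and IL6R, the interleukin 6 receptor, by 1.26 and 1.01. No gene of either set was called in PC3 with all PC3 libraries in the fit, whereas 22 of the 32 lower genes and 9 of the 22 higher genes passed with the siNT1 and mock libraries alone. The choice of these genes used the same PC3 values, and nothing is read from these counts. Of the 9 genes with CGACTA, 8 passed there, all but SMIM13.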

How the data were processed

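RNA was measured in PC3 and HeyA8 cells. The authors made total RNA libraries after ribosomal RNA removal, sequenced them as read pairs, and deposited raw read counts per gene in 1 table. The submitters' notes name STAR, HTSeq and hg38, without versions, and the study names Tophat or STAR for alignment. Strandedness of counting is not given in the sources used here. Totals per PC3 library ranged from 27937092 to 29971612 counts. The 8 PC3 libraries were fitted with edgeR 4.0.16 (R 4.3.3; filterByExpr, TMM, quasi-likelihood test) on treatment and time, with Benjamini-Hochberg adjustment over all 15136 genes. The labels' replicates are the times, which pair the libraries. HeyA8 was fitted likewise, and the line difference over all 16 libraries. DESeq2 1.42.0, other filters and scaling, fewer libraries and leaving out each library were alternatives. On simulated data 43 of 100 genes changed 2-fold and 96 of 100 changed 4-fold were recovered in PC3 siNT1 against mock, with 7 false calls among 14965 genes. Sites were searched in 3′ UTRs of GENCODE v44 for 18743 genes matched by symbol. Named were all called genes, the study's control genes, and each list's called or 3 most abundant members. Others were named after their values were seen. Members and lists were chosen with earlier results of these data known. Some listed genes and 1 list are not reported here.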

Additional observations from a re-analysis of the deposited data

Results flagged for a closer look

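For 2 of the called genes the HeyA8 difference had the opposite sign to that in PC3 at both times, which for FAM131B rests on very few reads (2 in each HeyA8 library at 48 h). FAM131B fell in PC3 by 1.55 on the log2 scale and differed by 0.48 in HeyA8, where it had only 5.01 and 2.04 normalized counts in mock and 7.73 and 2.17 after siNT1. The line difference was -2.05 (edgeR, unadjusted p = 0.0219, adjusted p = 1). PTGS2 rose in PC3 by 2.70 and differed by -0.94 in HeyA8, with 19.1 and 12.2 in mock and 8.69 and 7.60 after siNT1 (line difference 3.63, unadjusted p = 0.00105, adjusted p = 1). Neither line difference passed over all 15887 genes.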

How the results depend on the processing

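All 35 called genes kept their direction under every alternative tried. Against 35 calls (31 higher, 4 lower), there were 82 (61, 21) with no filter on low counts, 266 (173, 93) by DESeq2, 253 (156, 97) with only the siNT1 and mock libraries, 79 (59, 20) without siGGGGGC, 28 (24, 4) with at least 1 CPM in 2 or more libraries and 11 (11, 0) without siCAG. The replicate block is time: without it 6 genes were called, 6 higher and 0 lower. Without any 1 of the 4 libraries 0 genes were called by edgeR (528 to 1128 at an unadjusted p under 0.05). For the line difference, 0 by edgeR (318 unadjusted), there were 14 (11, 3) by DESeq2, 10 (7, 3) with only the siNT1 and mock libraries and 2 (1, 1) without siCAG. The median of genes with CGACTA, -0.093, was -0.069 at 24 h alone and from -0.125 to -0.067 without 1 library. The causes were not tested.

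The values that changed sign were those of uncalled genes near 0. Without 1 library they ranged from -0.016 to 0.319 for VAMP3, from -0.166 to 0.067 for PPIL1, from -0.12 to 0.142 for RFC3, from -0.056 to 0.053 for UMPS, from 0.000 to 0.221 for MAVS, from -0.205 to 0.22 for OAS3, from -0.176 to 0.135 for CNOT1, from -0.131 to 0.072 for TSN, from -0.237 to 0.482 for MCM7, from -0.257 to 0.047 for RRM1, from -0.249 to 0.09 for ACLY, from -0.061 to 0.184 for PHLDA1 and from -0.043 to 0.098 for TEAD1. At 24 h alone they were KRT19 0.16, MAVS -0.015, OAS3 -0.031, MCM7 -0.107 and TEAD1 -0.028, and at 48 h alone PPIL1 0.027, CNOT1 0.184, TSN 0.066, ACLY 0.017 and PHLDA1 -0.047. Other uncalled values kept their sign without 1 library but moved in size. FASN ranged from -0.76 to -0.127, AXL from 0.27 to 1.059, ENO1 from -0.481 to -0.028 and FOSL1 from 0.055 to 0.276. Among the reference genes, GAPDH ranged from -0.456 to -0.133, ACTB from 0.09 to 0.364 and B2M from 0.116 to 0.436.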
